A study of Mus musculus with 36 samples.

Results

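The clustered histone genes are the mouse genes whose symbols begin with Hist1h, Hist2h, Hist3h or Hist4h, and they were taken by that spelling from the count tables. They numbered 61 of 21516 genes: 6 for the linker histone H1, 15 for H2A, 17 for H2B, 11 for H3 and 12 for H4, of which 50 carry a Hist1 name, 8 a Hist2 name, 2 a Hist3 name and 1 a Hist4 name. Of these, 52 passed the filter on low counts and were tested.

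RNA came from FUCCI mouse embryonic stem cells, a 129/sv line that carries fluorescent cell cycle reporter transgenes, sequenced in 36 libraries by a Lexogen 3' QuantSeq protocol, 3 libraries for each of 12 groups. All groups were grown in LIF for about 18 h to about 24% confluence and then for 72 h in their own condition, in medium with 15% serum. Sorb300 received 300 mM sorbitol, a sugar alcohol that raises osmolarity, in the presence of LIF. RA received 1 µM RA without LIF, and ND (normal differentiation) was grown without LIF. The 8 toxicant groups kept LIF and received BP at 1 or 4 µM, cortisol at 10 or 60 µM (Cort10 and Cort60), DEP at 5 or 10 µM, or PFOA at 60 or 100 µM; BP, DEP and PFOA are given here as the labels abbreviate them. The lower dose of each was the lowest that visibly slowed growth and the higher one suppressed growth strongly, per the series' design text. NS (normal stemness) was the untreated group with LIF at 1000 U/mL. The series calls the 3 libraries of each group biological triplicates, all of 1 cell line.

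Most histone RNA is made in S phase, when newly copied DNA has to be packed. The core histones H2A, H2B, H3 and H4 form the nucleosome and H1 binds the DNA between nucleosomes. The messages of these genes are unusual in that they mostly end in a short stem-loop, held by the stem-loop binding protein Slbp, and not in a poly(A) tail. Some members also give a longer, polyadenylated form, which is known from differentiated and slowly dividing cells. A 3' library is primed on poly(A), so the values below describe the part of histone RNA that such a primer can reach.

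The stem-loops are printed because they decide what kind of 3' end a histone message can have. A search of the bases after the stop codon in the GENCODE transcripts (GRCm38) for a 6-base stem with a 4-base loop found one in 41 of the 61 members, counting a member if any of its annotated transcripts held it. The commonest form, the one of Hist1h1e, stood in 22 members. Capitals mark the loop.
Hist1h1e: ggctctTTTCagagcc
Hist1h2ag: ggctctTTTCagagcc
Hist1h3c: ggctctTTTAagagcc
Hist1h4b: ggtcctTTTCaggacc
Hist1h4n: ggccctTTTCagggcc
Hist4h4: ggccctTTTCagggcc
For 18 members the longest annotated transcript holds fewer than 60 bases after the stop codon, Hist1h3h and Hist1h2an among them with 0, so a search there could find little or nothing. The poly(A) hexamer (AATAAA or ATTAAA) was found after the stop codon in annotated transcripts of 21 members, among them Hist1h2bc, Hist1h2be, Hist1h1c and Hist4h4. It was counted at any distance from the transcript end, so it need not be a working signal. The last hexamer lay 447 bases from that end in Hist1h2bc, 20 in Hist1h2be, 26 in Hist1h1c and 9 in Hist4h4. The coding sequences are close copies: 38 members had at least 1 other member with 95% or more identity over the coding length. Only members of the same coding length were compared, with 1 transcript each, so 38 is a minimum. Hist1h2bp, taken at 417 bases, and Hist1h2ah, at 387, were among those left without a comparison. Hist1h3h was 99.27% identical to Hist1h3g, Hist1h2ag 99.24% to Hist1h2ap and Hist1h2bc 98.95% to Hist1h2bj. How reads that match several copies were counted is not given in the sources used here, so values of these members are uncertain as to which copy they stand for. Hist4h4 at 87.18% and Hist3h2ba at 90.81% had no such near copy among the members compared.

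The promoters are shown for members whose levels moved together or apart. RefSeq promoters (GRCm38.p6, 250 bases before to 50 bases after the start) were matched for 55 of the 61 members; Hist1h2ap, Hist1h2bc, Hist2h2be, Hist1h3a, Hist1h3f and Hist2h4 were not matched. Capitals mark the CCAAT box, the TATAAA box and the octamer ATTTGCAT, each searched on both strands, and no marked stretches overlap in the windows printed.
Hist1h2ag: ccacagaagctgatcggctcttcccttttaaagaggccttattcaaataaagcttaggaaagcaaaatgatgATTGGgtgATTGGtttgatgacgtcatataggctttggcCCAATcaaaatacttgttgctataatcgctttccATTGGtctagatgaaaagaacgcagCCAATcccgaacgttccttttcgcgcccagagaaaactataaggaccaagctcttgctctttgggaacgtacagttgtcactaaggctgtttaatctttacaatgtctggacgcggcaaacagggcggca
Hist1h2an: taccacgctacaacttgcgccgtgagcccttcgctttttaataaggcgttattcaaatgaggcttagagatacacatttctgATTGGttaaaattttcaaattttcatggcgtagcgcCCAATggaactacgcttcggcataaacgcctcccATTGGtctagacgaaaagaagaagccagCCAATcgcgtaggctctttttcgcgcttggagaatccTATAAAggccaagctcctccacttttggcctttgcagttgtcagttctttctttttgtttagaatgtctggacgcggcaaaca
Hist1h3h: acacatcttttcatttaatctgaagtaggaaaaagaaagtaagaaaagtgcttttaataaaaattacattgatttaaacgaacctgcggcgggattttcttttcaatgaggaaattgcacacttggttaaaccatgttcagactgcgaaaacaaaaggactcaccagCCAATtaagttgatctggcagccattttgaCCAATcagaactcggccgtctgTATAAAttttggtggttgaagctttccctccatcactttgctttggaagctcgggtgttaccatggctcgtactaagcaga
Hist4h4: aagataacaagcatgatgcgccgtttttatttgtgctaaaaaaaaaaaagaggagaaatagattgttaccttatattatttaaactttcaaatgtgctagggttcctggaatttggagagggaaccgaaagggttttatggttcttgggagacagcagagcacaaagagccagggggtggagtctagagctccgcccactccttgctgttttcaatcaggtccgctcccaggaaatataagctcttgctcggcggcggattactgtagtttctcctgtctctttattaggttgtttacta
These windows lie at chr13:22042900-22043199 on the minus strand, chr13:21787199-21787498 on the minus strand, chr13:21717378-21717677 on the plus strand and chr6:136804382-136804681 on the minus strand. The CCAAT box stood in 47 of 55 member promoters (85.5%), against 37.9% of all 27025 promoters of the same length. It was present in all 6 H1, 14 H2A, 15 H2B and 9 H3 promoters and in 3 of 11 H4 promoters. The TATAAA box stood in 58.2% of member promoters, against 14.2% of all. The octamer, long known from H2B promoters, stood in 7 of 14 H2A and 6 of 15 H2B promoters and in none of the other members' windows, 23.6% of members in all, against 1.75% of all promoters. In 7 places an H2A and an H2B gene start on opposite strands within the same stretch, so that their windows shared 220 to 279 bases. The window of Hist1h2ag is in this way largely that of Hist1h2bj, and the window of Hist1h2an that of Hist1h2bp.

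Library totals ran from 1848254 to 7288084 counts, and 3 counts correspond to 0.395 to 1.85 CPM, which are counts scaled by library size with TMM factors. The members together held 1737 to 6805 counts per library, 0.0553% to 0.157% of all counts. Levels are not per length, so they are compared between samples and not between genes, except as shares of counts. The 9 pluripotency markers examined summed to 3430 to 3975 CPM in Sorb300, to 369 to 652 CPM in RA, to 1933 to 2654 CPM in ND and to 3206 to 4056 CPM in NS. In bulk RNA, fewer cells with a message and less message per cell cannot be told apart.

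Libraries of a group differed in ways that touch every result below. The first Sorb300 library was the lowest of its group for 41 of the 52 tested members. It had the lowest summed histone level of all 36 libraries, 519 CPM, while the second had the highest, 1649 CPM, and the third had 1296 CPM; the NS libraries had 1025, 1141 and 1635 CPM. In the 8 toxicant groups and NS the library numbered 3 stood apart from the libraries numbered 1 and 2. In these 9 groups the H3 and H4 sums were highest in the library numbered 3 in 9 of 9, the H2A and H2B sums in 8 of 9 and the H1 sum in 2 of 9. The order was not confined to them. Over all 12 groups that library was highest for the H3 sum in 12 and for the H4 sum and the summed core histones in 11. It was highest for the H2B sum in 10 and for the H2A sum in 8. In the 8 toxicant groups and NS the summed core histones of the library numbered 3 were 2.07 times the mean of the other 2 libraries at the median (range 1.16 to 2.60). Hist1h3c, an H3 gene, is one example. It had 129 CPM in the third BP1 library, against 76.4 and 47.2 CPM in the others, and 201 CPM in the third DEP5 library, against 64.6 and 55.0 CPM. In NS it had 158 CPM in the third library, against 65.2 and 91.0 CPM.

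Of the 52 tested members, 17 were highest in the library numbered 3 in at least 8 of these 9 groups. A pair of members went the other way in all 9: the H1 gene Hist1h1b and the H2A gene Hist2h2ac. Hist1h1b had 24.4 CPM in the third NS library, against 77.8 and 55.8 CPM in the others, and Hist2h2ac had 3.48 CPM, against 19.3 and 11.1 CPM. Both genes were lowest in the library numbered 3 in 11 of the 12 groups. The share of counts on 80 ribosomal protein genes moved with this pattern. It was highest in the library numbered 3 in 9 of 9 groups, at 1.35 times the other libraries at the median, and in 11 of all 12 groups. Its part in the result was not tested. The labels give no meaning for the numbers beyond naming replicates.

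**Figure D1:**
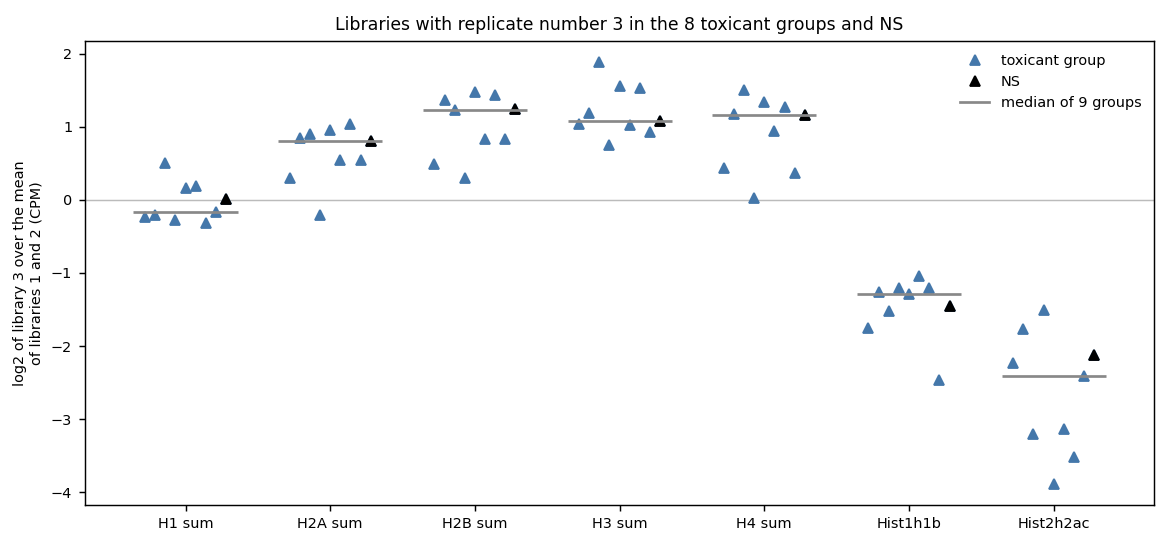
Log2 of the level in the library numbered 3 over the mean of the libraries numbered 1 and 2 (CPM), for the sums of the 5 histone types and for Hist1h1b and Hist2h2ac; each triangle is 1 of the 8 toxicant groups or NS, and grey lines are medians. H3 and H4 sums lie above 0 in all 9 groups, Hist1h1b and Hist2h2ac below 0 in all 9.

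In sorbitol the H3 sum lay below NS in every library, while the H1 sum spread to both sides of NS. The H3 sum was 18.4, 47.5 and 47.8 CPM in the Sorb300 libraries, against 118, 179 and 313 CPM in the NS libraries, so that every Sorb300 library lay below every NS library. The H2A sum was 38.4, 162 and 122 CPM in Sorb300, against 136, 187 and 281 CPM in NS, and the ranges overlapped. The H4 sum was 46.9, 123 and 130 CPM in Sorb300, against 78.1, 143 and 247 CPM in NS, with overlap.

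The H2B sum overlapped between the groups, with 147, 154 and 132 CPM in Sorb300, against 82.4, 103 and 220 CPM in NS. In Sorb300, though not in NS, a single gene, Hist1h2bc, made up most of it, as described below. Without Hist1h2bc, an alternative chosen after seeing the data, the H2B sum was 13.6, 40.2 and 44.1 CPM in Sorb300, against 62.5, 78.7 and 185 CPM in NS, and every Sorb300 library lay below every NS library. The H1 sum was 268, 1162 and 863 CPM in Sorb300, against 610, 530 and 573 CPM in NS: it was the lowest of all 36 libraries in the first Sorb300 library and the highest in the second. Hist1h1e carried 24.6% to 57.7% of all clustered histone CPM in a library, and it had 206, 875 and 645 CPM in Sorb300, against 469, 378 and 440 CPM in NS. The mean H3 sum in Sorb300 was 37.9 ± 16.9 CPM, against 203 ± 99.7 CPM in NS (SD, n = 3 each), a ratio of 0.187. The same ratio was 1.34 for H1, 0.535 for H2A, 1.07 for H2B (0.300 without Hist1h2bc) and 0.641 for H4. Over the tested members of each type, the median log2 fold change was -1.72 for H3, -1.65 for H2B, -0.86 for H2A, -0.64 for H4 and 0.28 for H1, so the H2B median lay close to that of H3 although the H2B sum did not. The share of counts on ribosomal protein genes was 8.76%, 10.4% and 9.93% in Sorb300, against 14.9%, 14.1% and 17.8% in NS, without overlap; its part in the histone values was not tested.

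**Figure D2:**
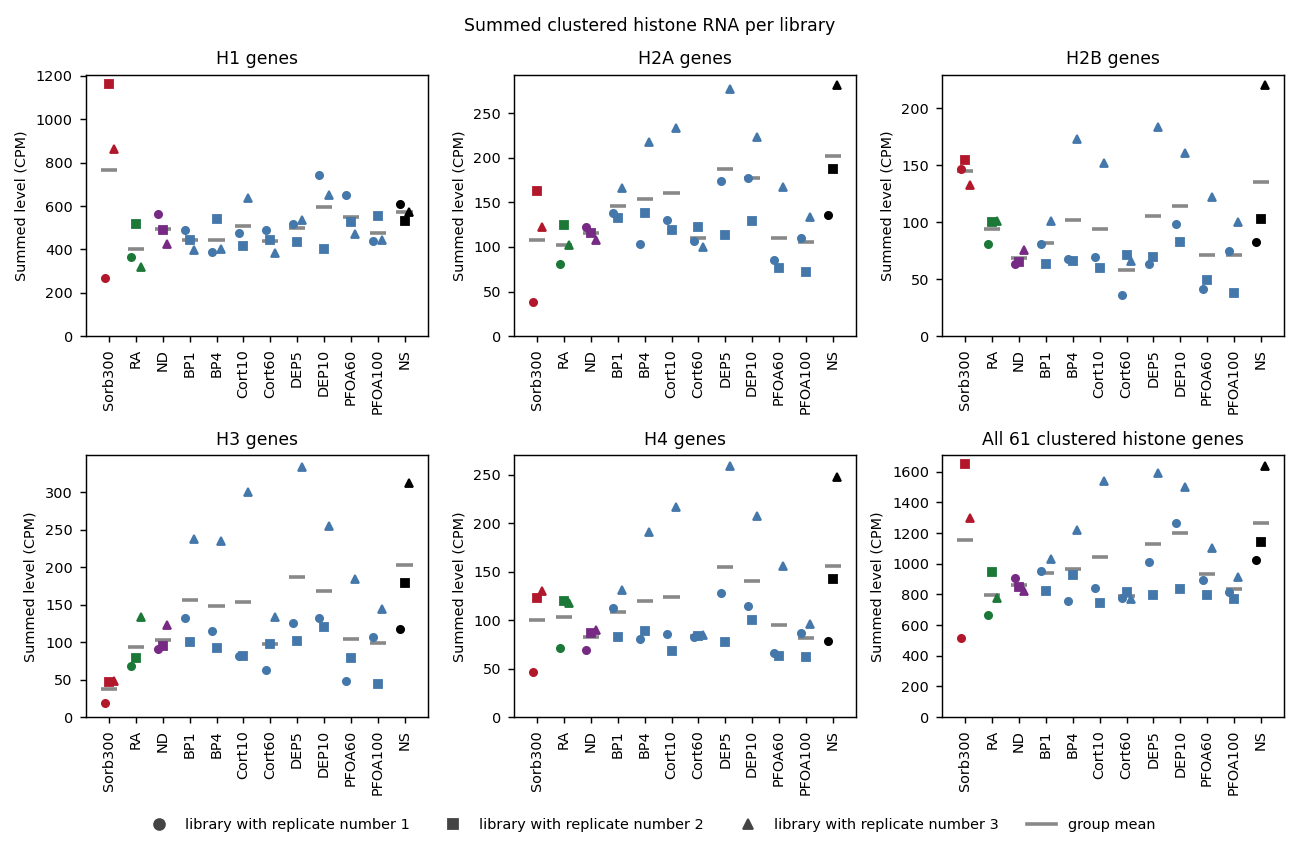
Summed level (CPM) of the clustered histone genes by type and in all, in each of the 36 libraries; point shapes give the replicate number and grey lines the group mean. The H3 sums of Sorb300 (18.4 to 47.8 CPM) lie below those of NS (118 to 313 CPM), and triangles (replicate number 3) stand high in most toxicant groups and in NS.

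In edgeR's quasi-likelihood fit over all 13498 tested genes, with p-values adjusted by Benjamini-Hochberg, 4 members were higher and 10 lower in Sorb300 than in NS at an adjusted p under 0.05. Of all tested genes 15.1% were called higher and 15.2% lower, so the 7.69% of members called higher lay under the background and the 19.2% called lower slightly above it. The members' log2 fold changes were negative in 37 of 52, with a median of -0.93, beside 0.00 over all tested genes. No library of 1 group overlapped the other for 13 members on the low side (25%, beside 17.7% of all genes) and for 2 on the high side (3.85%, beside 18.9%). The 10 lower members were 4 H3, 3 H2B, 2 H2A and 1 H4 gene, and the 4 higher ones 2 H4, 1 H2A and 1 H2B gene. Of the 5 tested H1 genes 0 were called. In the authors' deposited table of this comparison, 4 members were higher and 10 lower at an FDR under 0.05. That table held all 61 members, and 4011 of its 21516 genes passed this FDR. Which members passed there was not compared.

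The lower H3 genes were Hist1h3h, Hist1h3c, Hist1h3i and Hist1h3a, copies of the replication-dependent H3. Hist1h3h had 1.29, 2.67 and 0.919 CPM in Sorb300, against 23.6, 24.3 and 44.5 CPM in NS. Every Sorb300 library lay far below every NS library, with a log2 fold change of -4.17 (SE 0.58, adjusted p = 2.22e-06). Hist1h3c, the H3 gene with the most counts, had 4.04, 12.8 and 12.4 CPM in Sorb300, against 65.2, 91.0 and 158 CPM in NS, a log2 fold change of -3.47 (SE 0.75, adjusted p = 0.000983). The groups were again apart. Hist1h3i had 0.551, 3.15 and 1.38 CPM in Sorb300, against 5.65, 6.89 and 13.4 CPM in NS, a log2 fold change of -2.36 (adjusted p = 0.0196). Its call was lost without the first or the third Sorb300 library or the third NS library (adjusted p = 0.0891, 0.0639 and 0.108). Hist1h3a had 3.31, 4.12 and 6.89 CPM in Sorb300, against 6.32, 19.2 and 29.3 CPM in NS, with overlap, and a log2 fold change of -2.00 (adjusted p = 0.0257). Its call was lost in 4 of the 6 fits that leave out 1 library, those without the first or second Sorb300 library or the second or the third NS library (adjusted p = 0.0545 to 0.147).

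Among H2A genes, Hist1h2ag had 1.47, 7.27 and 7.35 CPM in Sorb300, against 25.3, 40.3 and 66.4 CPM in NS. The groups did not overlap, and the log2 fold change was -3.12 (SE 0.53, adjusted p = 5.01e-05). Hist1h2ai had 1.65, 6.79 and 12.4 CPM in Sorb300, against 22.6, 22.1 and 58.4 CPM in NS, a log2 fold change of -2.43 (adjusted p = 0.00814), which missed the threshold without the third NS library (adjusted p = 0.0759). The H4 gene Hist1h4b had 6.62, 5.09 and 12.4 CPM in Sorb300, against 19.6, 44.3 and 69.6 CPM in NS, and a log2 fold change of -2.54 (SE 0.67, adjusted p = 0.00494). It too did not overlap.

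Of the H2B genes, 3 were lower. Hist3h2ba had 3 counts in all in Sorb300, in libraries at 0, 0.485 and 0.459 CPM, against 77 counts in NS, at 2.66, 3.20 and 13.9 CPM. The scaled ratio of these counts was 0.0368, with an exact 95% counting interval of 0.00743 to 0.112, which covers counting error only (adjusted p of the fit 0.000987). Hist1h2bk had 1.29, 3.15 and 17.9 CPM in Sorb300, against 32.6, 33.0 and 87.0 CPM in NS, a log2 fold change of -2.98 (adjusted p = 0.0156). Hist1h2bj had 0.184, 4.85 and 1.84 CPM in Sorb300, against 5.32, 8.61 and 25.9 CPM in NS, a log2 fold change of -2.56 (adjusted p = 0.0202). For both genes every Sorb300 library lay below every NS library. The call of Hist1h2bk was lost without the first or second Sorb300 library or the third NS library (adjusted p = 0.0647, 0.0819 and 0.0865), and that of Hist1h2bj without the first or the third Sorb300 library or the third NS library (adjusted p = 0.0862, 0.0708 and 0.197).

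The higher member that held under every setting tried was Hist1h2bc, an H2B gene. It had 133, 114 and 88.2 CPM in Sorb300, against 19.9, 24.3 and 35.6 CPM in NS, and every Sorb300 library lay well above every NS library. The log2 fold change was 2.07 (SE 0.37, adjusted p = 8.21e-05). The first Sorb300 library, in which most members were at their lowest, was the highest of all 36 for Hist1h2bc. Hist4h4, a gene outside the large clusters, had 5.33, 13.6 and 18.8 CPM in Sorb300, against 2.99, 0.984 and 3.98 CPM in NS, a log2 fold change of 2.22 (adjusted p = 0.0271). Its groups did not overlap either.

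Hist1h2an had 3.31, 21.6 and 12.9 CPM in Sorb300, against 1.99, 1.48 and 6.96 CPM in NS, a log2 fold change of 1.82 (adjusted p = 0.0342). Hist1h4n had 4.96, 22.5 and 18.8 CPM in Sorb300, against 3.66, 5.90 and 7.71 CPM in NS, a log2 fold change of 1.39 (adjusted p = 0.0360). In both, the first Sorb300 library lay within the NS range. Hist4h4, Hist1h2an and Hist1h4n each lost their call in 4 of the 6 fits that leave out 1 library of these groups, those without the second or the third Sorb300 library or the first or second NS library (adjusted p = 0.0550 to 0.282). The counts that follow are given without the share of all genes called in each fit. Without the first Sorb300 library, 5 members were called higher and 6 lower. Without the second or the third Sorb300 library, 1 was called higher and 10 lower in each fit. Without the third NS library, 4 were called higher and 5 lower, and without the first or second NS library 1 was called higher and 12 or 9 lower. The 6 members called in all 14 alternative settings were Hist1h2bc on the high side and Hist1h2ag, Hist1h3c, Hist1h3h, Hist1h4b and Hist3h2ba on the low side.

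**Figure D3:**
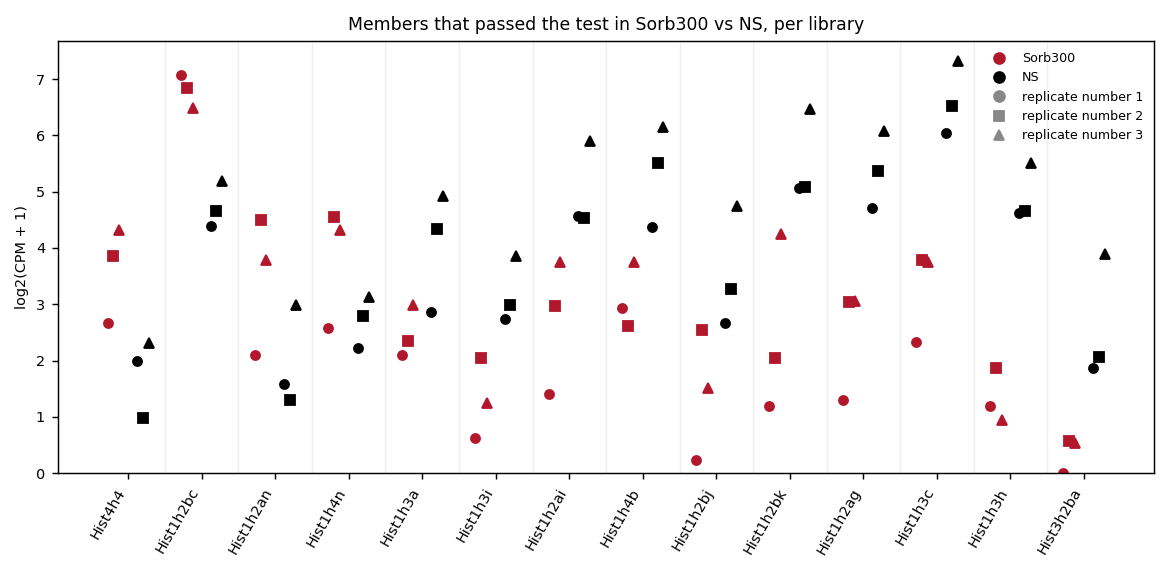
Level in each library, as log2(CPM + 1), of the 14 members that passed the test in Sorb300 vs NS; red points are Sorb300 and black points NS, with shapes for the replicate number. Hist1h2bc stands at 88.2 CPM or more in Sorb300 and at 35.6 CPM or less in NS, while Hist1h3h stands at 2.67 CPM or less and at 23.6 CPM or more.

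The divergent pairs did not always move as one. Both genes were tested in 6 of the 7 pairs, and their log2 fold changes in Sorb300 vs NS had the same sign in 4. Hist1h2ag and Hist1h2bj, which share the window printed above, were both lower, with log2 fold changes of -3.12 and -2.56. Hist1h2an was higher at 1.82, while its partner Hist1h2bp had -2.03 and did not pass the test (adjusted p = 0.0787). The partners Hist1h2ai and Hist1h2bl had -2.43 and -2.28, the second with an adjusted p of 0.0799. The annotated 3' ends of the called members also differed. The poly(A) hexamer stood somewhere after the stop codon in 2 of the 4 higher and 1 of the 10 lower members, beside 13 of the 38 that were not called. A stem-loop stood in 2 of 4, 7 of 10 and 26 of 38. The median number of annotated bases after the stop codon was 411, 76.0 and 95.5. These groups are small and chosen by the result, so the counts are a description.

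Among genes that make or carry histones, a list of 22 covered histone gene transcription, 3' end processing and decay. In Sorb300 2 of them were higher and 2 lower, where 15.1% of all genes were called higher and 15.2% lower. The list had a median log2 fold change of 0.22, beside 0.00 over all genes. Slbp, which holds the stem-loop, was measured at a low level, 3.49, 4.12 and 6.89 CPM in Sorb300, against 4.99, 6.40 and 4.23 CPM in NS, and its log2 fold change was -0.15 (adjusted p = 0.876). Npat, the coactivator of histone gene transcription at the histone locus body, had 94.3, 23.7 and 43.6 CPM in Sorb300, against 37.9, 105 and 70.4 CPM in NS (log2 fold change -0.39, adjusted p = 0.510). Neither passed the test. Hinfp, a factor that binds H4 promoters, was higher, with a log2 fold change of 1.60 (adjusted p = 0.00510), as was Srrt, a partner of the cap binding complex, at 0.84 (adjusted p = 0.0168). Lsm11, a part of the U7 particle that cuts histone messages, was lower at -0.60 (adjusted p = 0.0384), and so was the endonuclease Cpsf3 at -0.74 (adjusted p = 0.00246).

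Of 11 tested histone genes outside the clusters, 1 was higher and 5 lower in Sorb300, beside 15.1% and 15.2% of all genes. H1f0, the linker histone of resting cells, had 23.9, 20.1 and 20.2 CPM in Sorb300, against 175, 172 and 100 CPM in NS, a log2 fold change of -2.79 (adjusted p = 6.45e-07). All 3 Sorb300 libraries lay together and far below NS. H3f3b, which makes the replication-independent H3.3, fell by 1.17 on the log2 scale, whereas its sister gene H3f3a had -0.55 (adjusted p = 0.156) and H2afz, the gene of H2A.Z, 0.16 (adjusted p = 0.570). H2afx was the 1 that was higher, at 0.90 (adjusted p = 0.00113). Of 20 histone chaperone genes 4 were higher and 5 lower, beside the same shares of all genes. The 4 higher were Chaf1a, Cabin1, Daxx and Ipo4, by 0.87 to 1.57. Among the 5 lower was Hat1, which acetylates new H4, at -1.02, and the others are not named here.

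S phase genes were mixed in sorbitol, with 3 of 25 higher and 8 lower and a median log2 fold change of -0.09. For this list and those that follow, the background was 15.1% of all genes called higher and 15.2% lower. Rrm2, a subunit of ribonucleotide reductase, was lower at -1.34, while Fen1, a flap nuclease of replication, was higher at 1.16. Of 5 tested CDK inhibitor genes, Cdkn1c was higher at 1.15 and Cdkn1b lower at -0.91. Among 17 genes of poly(A) tail formation and cleavage, which bear on what a poly(A)-primed library can see, 4 were higher and 2 lower. Clp1, Cstf1 and Cpsf4, parts of the cleavage machinery, were higher at 0.97, 0.93 and 0.84, and Pabpc1, the cytoplasmic poly(A) binding protein, was lower at -0.97; their part in the result was not tested. Trophoblast markers summed to 473 to 1117 CPM in Sorb300, against 288 to 369 CPM in NS. Extraembryonic endoderm markers summed to 153 to 335 CPM in Sorb300, against 67.5 to 104 CPM in NS. The 8 feeder or fibroblast markers summed to 25.7 to 32.6 CPM, against 50.2 to 105 CPM, with Postn, Lum and Dcn at 0 in Sorb300. The part of these markers in the histone values was not tested.

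With RA the H1 and H2A sums lay below NS in every library, and those of H2B, H3 and H4 overlapped NS. The H3 sum was 68.3, 79.2 and 133 CPM in RA, against 118, 179 and 313 CPM in NS, with overlap. The H2A sum was 80.9, 124 and 102 CPM in RA, against 136, 187 and 281 CPM in NS, and these groups did not overlap. The H1 sum was 364, 519 and 320 CPM in RA, against 610, 530 and 573 CPM in NS, also without overlap. No member was called higher in RA vs NS (10.3% of all genes were) and 4 were called lower (7.69%, beside 13.8% of all genes). For 8 members every RA library lay below every NS library (15.4%, beside 22.2% of all genes). At an unadjusted p under 0.05, 8 of 52 members differed (36.1% of all genes did), and DESeq2 called 3 lower and 0 higher. The log2 fold changes were negative in 42 of 52, with a median of -0.60. The authors' deposited table held 2 lower members of 61 and 0 higher at an FDR under 0.05, which 3153 of its 21516 genes passed.

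Hist1h2ae had 24.0, 40.1 and 29.1 CPM in RA, against 44.5, 69.9 and 87.5 CPM in NS, a log2 fold change of -1.13 (SE 0.35, adjusted p = 0.0168). Hist1h3h had 5.34, 13.2 and 14.1 CPM in RA, against 23.6, 24.3 and 44.5 CPM in NS, a log2 fold change of -1.52 (SE 0.47, adjusted p = 0.0171). It was the 1 member lower in both Sorb300 and RA, comparisons that share the NS libraries. Hist1h2ab had 6.13, 7.56 and 6.25 CPM in RA, against 9.64, 18.2 and 21.6 CPM in NS, a log2 fold change of -1.33 (adjusted p = 0.0381). The H1 gene Hist1h1c had 21.8, 29.9 and 20.2 CPM in RA, against 31.3, 48.5 and 64.7 CPM in NS, a log2 fold change of -1.02 (adjusted p = 0.0461). For these 4 genes no RA library reached an NS library. All 4 calls were lost without the third NS library (adjusted p = 0.151 to 0.287) and without the first RA library (adjusted p = 0.0930 to 0.137). The count of calls was 1 without the second NS library, 2 without the second RA library and 1 without the third RA library. With library totals in place of TMM, a scaling that moves the median of all genes in this comparison by 0.34 on the log2 scale, the members' median was -0.20 and 1 member, Hist1h3h, was called.

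Beside them, 15 of 25 S phase genes were lower in RA and 0 higher, with a median log2 fold change of -0.86. Of all genes 13.8% were called lower and 10.3% higher in RA. Mcm5 and Mcm6, subunits of the replicative helicase, had -1.38 and -1.24, Ung, which removes uracil from DNA, -1.35 and Rrm2 -1.26. Of 5 CDK inhibitor genes 3 were higher, with Cdkn1c at 1.44, Cdkn2b at 1.58 and Cdkn2a at 1.09. Of the histones outside the clusters, H2afz was lower at -0.68 (adjusted p = 0.00935) and H2afj, H2afx and Cenpa were lower too, while H1f0 had 0.31 (adjusted p = 0.519), H3f3b 0.05 (adjusted p = 0.903) and H3f3a -0.27 (adjusted p = 0.523). Slbp and Npat had 0.07 and 0.45 and did not pass. All 9 pluripotency markers were lower in RA. Fibroblast or feeder markers summed to 388 to 500 CPM in RA, against 50.2 to 105 CPM in NS. Extraembryonic endoderm markers summed to 361 to 768 CPM, against 67.5 to 104 CPM, and trophoblast markers to 1026 to 1820 CPM, against 288 to 369 CPM. Ribosomal protein genes took 8.28%, 9.89% and 10.1% of counts in RA, against 14.9%, 14.1% and 17.8% in NS, again without overlap. The part of these markers and of the ribosomal protein share in the histone values was not tested.

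Without LIF alone, most members lay lower than in NS, but none passed edgeR's quasi-likelihood test in the fit of all 36 libraries. The H3 sum was 90.9, 94.5 and 122 CPM in ND, against 118, 179 and 313 CPM in NS, and the H2B sum was 63.8, 64.9 and 76.1 CPM, against 82.4, 103 and 220 CPM. The H2A and H2B sums did not overlap between the groups, and those of H1, H3 and H4 did. By edgeR's quasi-likelihood test 0 members were higher (0.259% of all genes) and 0 lower (0.933%), 5 of 52 had an unadjusted p under 0.05 (12.5% of all genes did), and DESeq2 called 1, Hist1h4h. The log2 fold changes were negative in 47 of 52, with a median of -0.91, beside 0.01 over all genes, and the median was -0.43 without the third NS library. For 11 members every ND library lay below every NS library (21.2%, beside 11.6% of all genes). The smallest adjusted p was that of the H4 gene Hist1h4h, with 2.75, 3.38 and 4.62 CPM in ND, against 6.65, 9.59 and 20.6 CPM in NS and a log2 fold change of -1.77 (adjusted p = 0.0854). With the replicate number as a block, which pairs the libraries of this comparison, Hist1h4h passed and 1 member was called, as it was without the first NS library. None of the 25 S phase genes, 11 other histone genes or 5 CDK inhibitor genes passed the test in ND.

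**Figure D4:**
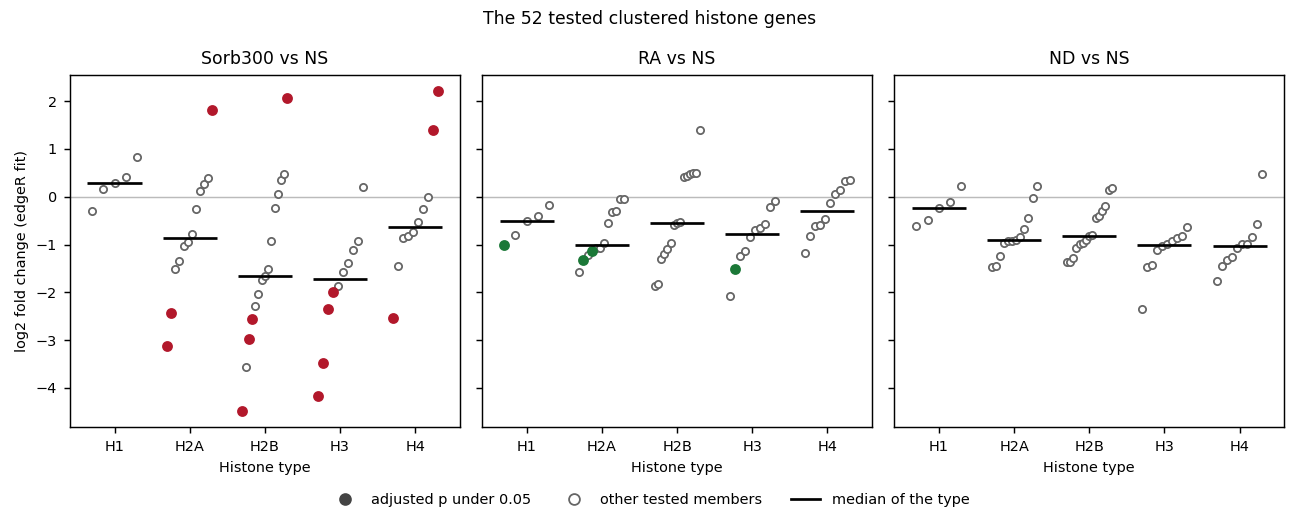
Log2 fold changes of the 52 tested members by histone type in Sorb300, RA and ND, each against the same NS libraries; filled points have an adjusted p under 0.05 and black lines are medians of a type. In Sorb300 the H3 median is -1.72 the H2B median -1.65 and the H1 median 0.28, while in ND the medians of H2A, H2B, H3 and H4 lie between -1.03 and -0.83.

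RA and ND, both without LIF, were also set against each other. Of 52 members 2 were higher (3.85%, beside 8.05% of all genes) and 0 lower (10.1%) in RA than in ND. They were both H2B genes with a poly(A) hexamer somewhere after the stop codon of the annotated transcript. Such a hexamer stood in 7 of the 17 H2B genes, and its part in the result was not tested. The members' median log2 fold change was 0.18. Hist1h2bc had 45.5, 34.2 and 31.1 CPM in RA, against 16.5, 14.8 and 13.9 CPM in ND, a log2 fold change of 1.30 (SE 0.37, adjusted p = 0.0126). Hist1h2be had 7.38, 10.9 and 12.5 CPM in RA, against 3.73, 3.54 and 3.03 CPM in ND, a log2 fold change of 1.57 (SE 0.56, adjusted p = 0.0467). No RA library reached down to an ND library for either. Leaving out the first RA library ended both calls (adjusted p = 0.0750 and 0.0592), and leaving out any other library of these groups ended that of Hist1h2be.

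Sorb300 set against RA and against ND uses the same Sorb300 libraries, so these values are given side by side. Sorb300 vs RA had 6 higher members (11.5%, beside 20.6% of all genes) and 6 lower (11.5%, beside 17.5%). Sorb300 vs ND had 3 higher (5.77%, beside 19.3%) and 5 lower (9.62%, beside 18.5%). On the log2 scale, Hist1h2bc was higher by 1.60 against RA (adjusted p = 0.000734) and by 2.90 against ND (adjusted p = 5.05e-07). Hist1h3h was lower at -2.65 and -3.34, Hist1h2ag at -1.90 and -2.21, and Hist1h3c at -2.23 and -2.48. Hist1h2bc, Hist1h3h and Hist1h2ag kept their calls in both comparisons whichever library was left out, and that of Hist1h3c against RA was lost without the first Sorb300 or the third RA library.

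Hist4h4 was higher by 1.89 against RA and by 2.79 against ND, and Hist1h2an by 1.87 and 1.59. The call of Hist4h4 was lost in 8 of 14 alternative settings against RA and in 0 of 14 against ND. That of Hist1h2an was lost in 5 of 14 against RA and in 9 of 14 against ND. Hist3h2ba, with 3 counts in Sorb300, against 49 in RA and 64 in ND, passed in both, with scaled ratios of 0.0849 (95% counting interval 0.0169 to 0.263) and 0.0728 (0.0146 to 0.223). The H1 genes Hist1h1e and Hist1h1c passed against RA, at 0.94 and 1.17, and each call was lost in 6 of 14 alternative settings. Hist1h1e had 206, 875 and 645 CPM in Sorb300, against 275, 381 and 246 CPM in RA, so the first Sorb300 library lay under all RA libraries and the others above them. Hist1h4n was higher by 1.26 against RA, Hist1h4b was lower there at -1.94, and Hist1h2ai was lower at -1.75 against ND. These calls were lost in 10, 4 and 7 of 14 alternative settings, in that order. With library totals in place of TMM, 2 members were higher and 7 lower against RA, where this scaling moves the median of all genes by -0.28. Against ND, 2 were higher and 6 lower with library totals. Hist1h2bf had 1 count in Sorb300, against 28 in RA, a scaled ratio of 0.0495 with a 95% counting interval of 0.00121 to 0.300. Its call against RA was lost in all 6 fits that leave out 1 library of these groups. The count of members called against RA ran from 3, without the third RA library, to 10, without the first Sorb300 library, and was 5 without the second Sorb300 library.

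Against NS, 0 of 52 members were called in any of the 8 toxicant groups by edgeR's quasi-likelihood test, where 0.00741% of all genes were called higher and 0.0667% lower in PFOA60 and 0% in the other 7 groups. At an unadjusted p under 0.05, 10 members differed in Cort60 (6.05% of all genes did), 13 in PFOA60 (7.51%) and 10 in PFOA100 (4.83%). The counts were 2 in BP1 (2.6% of all genes), 0 in BP4 (3.39%), 3 in Cort10 (3.85%), 1 in DEP5 (3.74%) and 0 in DEP10 (4.55%). DESeq2 called 1 member in PFOA60, Hist1h2be, and 0 elsewhere. The replicate block, which pairs the libraries in PFOA60 vs NS, gave 1 call, Hist1h2ag. All 8 medians were below 0. They were -0.52 in BP1 and BP4, -0.45 in Cort10, -0.96 in Cort60, -0.19 in DEP5, -0.28 in DEP10, -0.92 in PFOA60 and -0.93 in PFOA100, all set against the same NS libraries, whose core histone sums were 415, 611 and 1061 CPM. For 12 members every Cort60 library lay below every NS library (23.1%, beside 8.16% of all genes). The same held for 7 members in PFOA60 (13.5%, beside 6.96%) and 8 in PFOA100 (15.4%, beside 5.27%), for 5 in BP1 (9.62%, beside 4.4%) and for 4 in BP4 (7.69%, beside 4.95%). It held for 1 member each in Cort10, DEP5 and DEP10 (1.92%, beside 4.3%, 4.53% and 5.3% of all genes).

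The doses of each agent were also compared with each other. The H3 sum was 62.9, 97.2 and 134 CPM in Cort60, against 81.3, 81.0 and 300.2 CPM in Cort10. It was 115, 92.3 and 235 CPM in BP4, against 132, 100.2 and 238 CPM in BP1. It was 132, 120 and 255 CPM in DEP10, against 125, 102 and 333 CPM in DEP5, and 107, 44.3 and 144 CPM in PFOA100, against 48.5, 79.2 and 184 CPM in PFOA60. In all 4 pairs the doses overlapped. No member was called in BP4 vs BP1, Cort60 vs Cort10, DEP10 vs DEP5 or PFOA100 vs PFOA60 by edgeR's quasi-likelihood test or by DESeq2, where 0% of all genes were called by the first. At an unadjusted p under 0.05 there were 0 members in BP4 vs BP1 (0.615% of all genes), 2 in Cort60 vs Cort10 (2.16%), 0 in DEP10 vs DEP5 (1.21%) and 2 in PFOA100 vs PFOA60 (1.85%). The median log2 fold changes of members were 0.05, -0.48, -0.08 and -0.10 in that order, and 42 of 52 members lay lower in Cort60 than in Cort10.

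Sorbitol stood apart from all toxicant groups for a few members. Hist1h2bc ran from 8.60 to 32.0 CPM over the 24 toxicant libraries (median 15.4), all of them below the lowest Sorb300 library. Hist1h3h ran from 9.79 to 41.5 CPM (median 20.0) and Hist1h3c from 17.1 to 201 CPM (median 64.3), all above the highest Sorb300 library. Hist1h2ag ran from 8.86 to 63.0 CPM, also above it in 24 of 24. Hist4h4 ran from 0 to 5.80 CPM and was below the lowest Sorb300 library in 23 of 24. No test compared Sorb300 with the toxicant groups. These members were among those called against NS, and the share of all genes placed in this way is not given here. In Sorb300 vs NS, 18.9% of all genes lay higher and 17.7% lower without overlap. In order of group mean, Hist1h2bc stood at 112 ± 22.6 CPM in Sorb300, at 37.0 ± 7.60 CPM in RA and at 26.6 ± 8.05 CPM in NS (SD, n = 3 each), and RA and NS overlapped. The other 9 groups followed with means of 12.2 to 19.7 CPM.

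**Figure D5:**
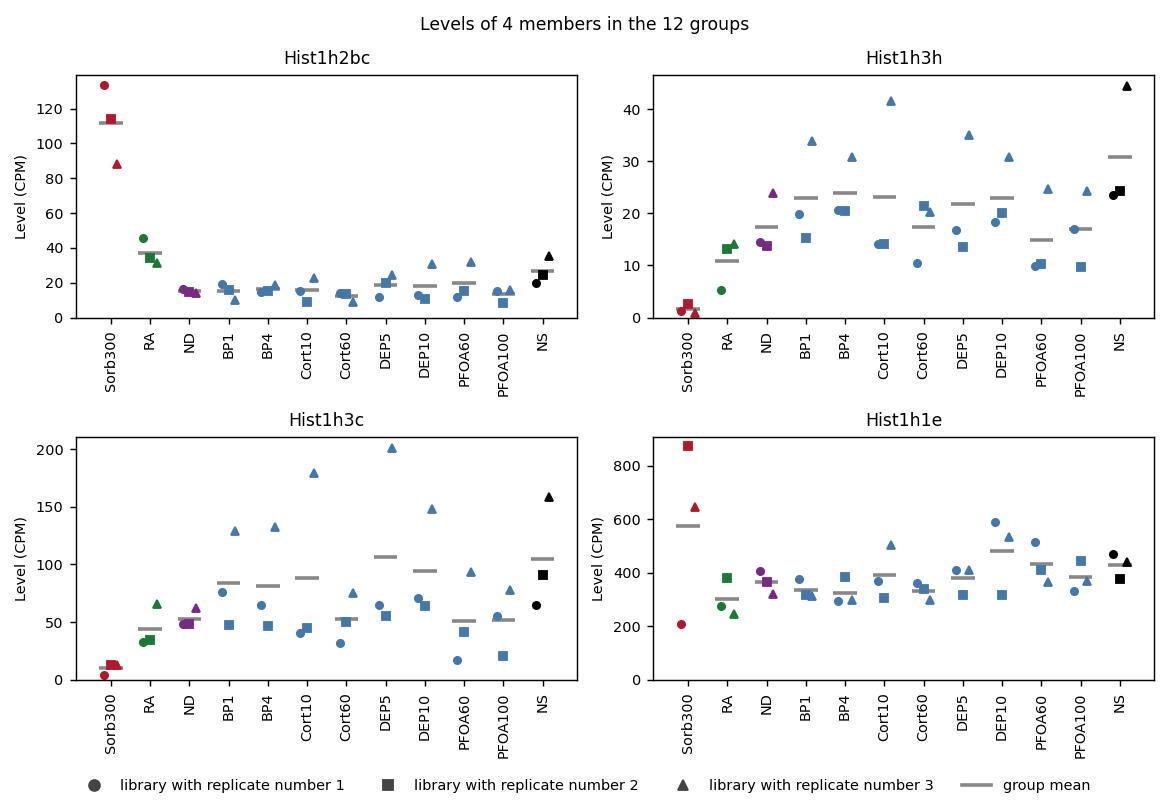
Level (CPM) of Hist1h2bc, Hist1h3h, Hist1h3c and Hist1h1e in each library of the 12 groups; shapes give the replicate number and grey lines the group mean. Hist1h2bc is at 88.2 CPM or more in Sorb300 alone, Hist1h3h at 2.67 CPM or less in Sorb300 alone, and Hist1h1e spreads from 206 to 875 CPM within Sorb300.

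The 9 members that did not pass the filter were Hist1h1t and Hist1h2ba, known from the testis, with Hist1h2ap, Hist2h2ab, Hist2h2aa2, Hist1h2br, Hist2h3c1, Hist2h4 and Hist1h4j. They held 2 to 127 counts over the 36 libraries. Their highest level was 5.51 CPM, for Hist2h4. They were not tested in the main fit, so whether they differed between groups is not decided here. Among the tested members, the H2A gene with the highest mean CPM was Hist1h2ae (47.3 CPM over the 36 libraries), the H2B genes were Hist1h2bk (26.9 CPM) and Hist1h2bc (26.6 CPM), and the H4 gene was Hist1h4d (36.3 CPM). Hist1h4d did not pass the test in RA vs NS, with 17.6, 23.3 and 28.8 CPM in RA, against 31.9, 44.8 and 80.3 CPM in NS (log2 fold change -1.17, adjusted p = 0.0619). In all, 20 of the 52 tested members passed in at least 1 of the 18 comparisons. The same share over all genes is not given here. In Sorb300 vs RA alone, 20.6% of all genes were called higher and 17.5% lower, so this count does not set the members apart.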

How the data were processed

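RNA of FUCCI mouse embryonic stem cells was measured in 36 libraries of 12 groups, grouped by the sample labels. The deposited tables, 11 in number, hold the authors' counts of reads for each gene, not normalized, with the NS columns repeated in each. Per the submitters' processing notes, CASAVA 1.8.2, STAR, HTSeq and edgeR were named, and the build mm9; settings, annotation and strand: not given in the sources used here. Per the file headers the tables also hold the authors' log2 fold change, p-value and FDR. Of these, only counts of members and of all genes at an FDR under 0.05 are printed. No coordinates of the mm9 build are given.

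Counts were fitted with edgeR 4.0.16 in R 4.3.3 (filterByExpr, TMM scaling, robust dispersion, quasi-likelihood test) in 1 model of all 36 libraries with a mean for each group, and 18 comparisons were tested, each adjusted by Benjamini-Hochberg over 13498 genes at 0.05. SEs were taken as log2 fold change over the square root of the F statistic. CPM use the TMM-scaled totals and summed CPM have no test. Totals ran from 1848254 to 7288084 counts (median 4822563). No source names molecular identifiers; intervals and floors therefore cover only counting error. The p-values measure the spread between replicates of 1 cell line. All groups in the model shared 1 estimate of this spread for each gene. The p-value of a comparison therefore does not rest on the libraries of its own groups alone.

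The members, gene lists and tests were chosen with earlier results of these data known, so no list is independent evidence of its own direction. Named were the members with the smallest adjusted p under 0.05 in a comparison, the 2 with the highest mean CPM of each type, up to 4 genes of each list that passed, and Slbp, Npat, H2afz, H3f3a, H3f3b and H1f0; other list genes were picked after their values were seen. Same-numbered libraries deviated together (every pair's correlation over 0.1) in 10 of 18 comparisons, ND vs NS and PFOA60 vs NS among them. The script was tested on simulated data. Alternatives were other filters, RLE scaling, library totals and the H2B sum without Hist1h2bc (both added after seeing the data), a replicate block, fits of only 2 groups, leaving out libraries, and DESeq2 1.42.0.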

Additional observations from a re-analysis of the deposited data

How the results depend on the processing

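The count of members called in Sorb300 vs NS was 14 under both other filters, RLE factors, library totals and DESeq2, 18 with the replicate block, 12 with only these groups fitted, and 9 without the libraries numbered 3. Leaving out 1 library at a time gave 9 to 13, and 9 was the value without the third NS library. In RA vs NS the count of 4 became 2 with no filter, 2 with RLE factors, 1 with library totals, 9 with the replicate block, 2 without the libraries numbered 3 and 8 with only these groups fitted; leaving out 1 library gave 0 to 5. In ND vs NS and in PFOA60 vs NS, with 0, the block and DESeq2 each gave 1, and leaving out 1 library gave 0 to 1 in ND. In RA vs ND the count of 2 became 1 with no filter, 1 without the libraries numbered 3 and 5 with only these groups fitted, and 0 to 1 leaving out 1 library. Sorb300 vs RA, at 12, gave 7 with only these groups fitted and 3 to 10 leaving out 1 library, and Sorb300 vs ND, at 8, gave 6 to 11. The cause was not tested. Here and above, counts of members called under other settings are printed without the share of all genes called in the same fit. They show how the member count moved and are not set against a background. By the rule that every pair's correlation exceeds 0.1, the numbers do not pair the libraries in Sorb300 vs NS or RA vs NS. The correlations were -0.23, -0.21 and -0.0015 in Sorb300 vs NS and 0.14, 0.037 and 0.15 in RA vs NS. The block is therefore given there only as a value, although the library numbered 3 had the highest H3 sum in all 12 groups. The block changed no other count by over 1.5 times. The log2 ratio of mean H1 sums in RA vs NS, -0.51, was -0.17 on raw library totals. That of H2B in Sorb300 vs NS, 0.10, was 0.70 without the member with the highest mean over all 36 libraries, Hist1h2bk, -1.73 without Hist1h2bc (chosen after seeing the data) and -0.16 to 0.64 leaving out 1 library; for H2B in RA it ran from -0.78 to 0.025 and in ND from -1.24 to -0.44. Of 40 calls of single members, 15 held under every alternative and 0 were reversed. Library totals moved the median of all genes by 0.34 in RA vs NS, 0.15 in ND vs NS, 0.16 in RA vs ND and -0.28 in Sorb300 vs RA. Depth limits members under about 1 CPM, near the level of 3 counts.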
